A study of Mus musculus with 14 samples.

Results

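The 32 genes of glycolysis and the hypoxia response described here span glucose and lactate transporters, the enzymes of glycolysis, the oxygen-sensing machinery and genes known to be induced when oxygen is low. They were chosen by name, with earlier results of these data known. The shares of all genes given beside their counts therefore do not test the set. Each gene was read from the probe sets of the array whose platform symbol is exactly that name. Of the 32, 29 were found among 18193 genes named by the array, and 28 were in the fit of 10916 genes tested. The other found gene, Gapdh, is carried only by the array's own control probe sets and is described apart from the 28. Gpi1, Eno1 and Bnip3l were not analysed here. Where a gene had several probe sets, as 19 of the 28 did, the one with the highest mean over all arrays was used.

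Mouse CD4+ T cells from spleen and lymph nodes were cultured in vitro under conditions for 3 helper subsets, with or without 10 mM acetate (labelled C2, the short-chain fatty acid with 2 carbons). All cultures received human IL-2 at 100 U per ml. Th17 cultures also received human TGF-beta1 (5 ng per ml), mouse IL-6 and TNF-alpha (20 ng per ml each), IL-1beta, IL-23 and IL-21 (10 ng per ml each) and antibodies against IL-4 and interferon-gamma. Treg cultures received TGF-beta1 (5 ng per ml) with IL-2, and Th1 cultures received IL-12 (10 ng per ml) with an antibody against IL-4. Culture lasted 5 days by the sample labels, which name the added compound as acetone in the treated Treg and Th1 samples, whereas the design description names sodium acetate for all subsets and a longer culture. There were 3 arrays each for control and acetate Th17 and 2 arrays each for control and acetate Treg and Th1, 14 in all. The labels do not say whether arrays of a group came from separate cultures or mice, so the p-values describe the spread among these arrays alone, which may be technical.

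Glycolysis splits glucose into pyruvate in the cytosol, and activated T cells use it heavily, turning much of the pyruvate into lactate that leaves the cell. The transcription factor HIF-1, a pair of HIF-1alpha and ARNT, drives many of these enzymes. When oxygen is plentiful, the prolyl hydroxylases encoded by Egln1 and Egln3 mark HIF-1alpha for destruction, and both hydroxylase genes are themselves HIF-1 targets. In helper T cells, glycolysis and HIF-1 are known to be high in Th17 cells and lower in regulatory T cells.

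The signal of each gene is the authors' deposited MAS5 signal after quantile normalization of the 14 arrays. A difference is given on the log2(signal + 3) scale with its standard error, and was called where limma's adjusted p was under 0.05 over all genes tested. The arrays' trimmed mean signals before normalization ranged from 53.2 to 116.0, a 2.18-fold range, and arrays of the same group correlated with r between 0.94 and 0.98 over the genes tested. The Gapdh control probe sets gave a ratio of 3-prime to 5-prime signal, a measure of RNA integrity. It was 1.22 and 1.23 on the control Treg arrays and 0.986 to 1.10 on the other 12. The same ratio for Actb was 1.418 and 1.330 on the control Treg arrays and 1.100 to 1.404 on the other 12. The 18S ribosomal RNA signal differed between the 2 control Treg arrays, at 3134 and 582. It was 2809 to 4149 on the Th17 arrays, 506 and 816 on acetate Treg and 298 to 1576 on Th1. The part of these differences in the results was not tested. In such bulk samples fewer cells of a type and less RNA per cell cannot be told apart. With 2 or 3 arrays a group, the number of arrays limits the precision.

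Across the 6 groups, the glycolysis and hypoxia genes were mostly lowest in control Treg cultures, and many were higher there with acetate. The control Treg group had the lowest mean of the 6 groups for 18 of 28 genes, and the acetate Th1 group for 8. The highest mean was in the control Th17 group for 12 genes and in the acetate Treg group for 11. The median difference with acetate over the 28 genes was 1.06 in Treg, -0.74 in Th1 and -0.15 in Th17, where the median over all genes tested was 0.03, 0.03 and 0.01.

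**Figure D1:**
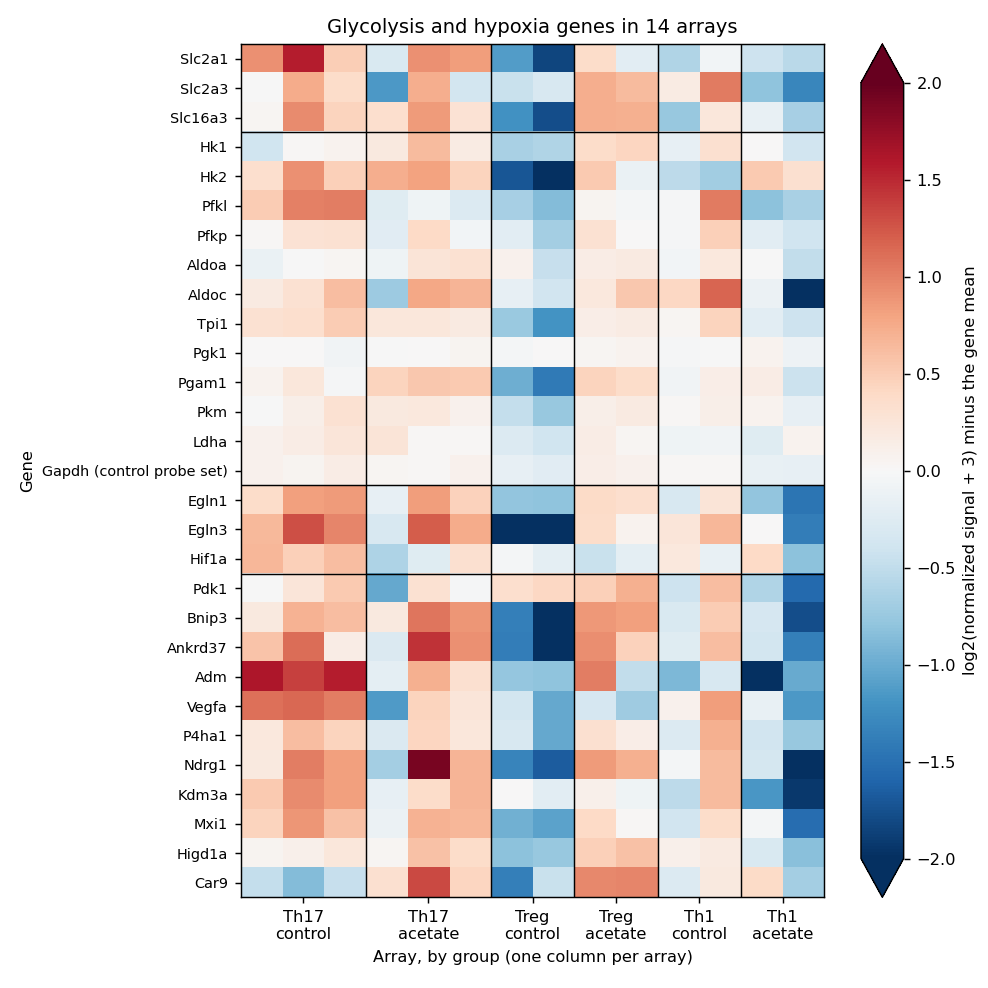
Signal of each glycolysis and hypoxia gene (rows) on each of the 14 arrays (columns, by group), as log2(signal + 3) minus the gene's mean over the arrays, in log2 units on a colour scale. The control Treg columns are the low ones for most genes, and control Treg was the lowest of the 6 groups for 18 of the 28.

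The 250 bases before the start of 6 genes are printed because these 6 both rose with acetate in Treg and differed between subsets in their response, and because HIF-1 is known to bind the core ACGTG or GCGTG, as hypoxia response elements hold it. The sequences are RefSeq's for GRCm38.p6, 5′ to 3′ on the gene's strand: Hk2 at chr6:82774455-82774704, Tpi1 at chr6:124814159-124814408, Bnip3 at chr7:138909507-138909756, Egln3 at chr12:54203875-54204124 and Higd1a at chr9:121857797-121858046 on the minus strand, and Pgam1 at chr19:41911621-41911870 on the plus strand. Capitals mark ACGTG or GCGTG on the gene's strand and CACGT or CACGC, the same cores on the other strand.
Hk2: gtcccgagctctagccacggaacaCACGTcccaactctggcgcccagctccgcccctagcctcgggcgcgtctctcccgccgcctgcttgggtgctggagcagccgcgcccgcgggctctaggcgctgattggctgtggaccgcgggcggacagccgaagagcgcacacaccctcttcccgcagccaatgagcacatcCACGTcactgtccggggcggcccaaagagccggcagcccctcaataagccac
Tpi1: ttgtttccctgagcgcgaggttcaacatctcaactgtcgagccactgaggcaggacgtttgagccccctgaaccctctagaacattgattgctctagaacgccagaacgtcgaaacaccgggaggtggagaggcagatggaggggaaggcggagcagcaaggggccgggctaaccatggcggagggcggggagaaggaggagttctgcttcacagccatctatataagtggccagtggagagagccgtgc
Pgam1: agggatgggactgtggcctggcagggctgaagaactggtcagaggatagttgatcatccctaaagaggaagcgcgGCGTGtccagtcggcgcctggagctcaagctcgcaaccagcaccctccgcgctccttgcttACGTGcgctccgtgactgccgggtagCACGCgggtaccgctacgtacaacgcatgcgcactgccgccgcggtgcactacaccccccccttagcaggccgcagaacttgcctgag
Bnip3: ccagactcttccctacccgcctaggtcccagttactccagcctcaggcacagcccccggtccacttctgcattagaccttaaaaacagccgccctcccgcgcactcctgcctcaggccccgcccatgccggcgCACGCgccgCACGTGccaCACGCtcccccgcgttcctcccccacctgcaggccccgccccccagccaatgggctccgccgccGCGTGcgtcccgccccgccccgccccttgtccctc
Egln3: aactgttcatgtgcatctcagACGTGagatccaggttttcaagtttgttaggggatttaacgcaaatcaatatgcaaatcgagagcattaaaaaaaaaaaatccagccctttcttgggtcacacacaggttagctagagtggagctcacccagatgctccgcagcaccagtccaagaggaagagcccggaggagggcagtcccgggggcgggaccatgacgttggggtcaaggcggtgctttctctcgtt
Higd1a: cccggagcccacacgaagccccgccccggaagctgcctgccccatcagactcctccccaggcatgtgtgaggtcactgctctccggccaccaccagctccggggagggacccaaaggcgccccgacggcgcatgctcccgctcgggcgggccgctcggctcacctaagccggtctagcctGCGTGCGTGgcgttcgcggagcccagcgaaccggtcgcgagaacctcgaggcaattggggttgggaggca

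Hk2 held the core ACGTG on its other strand at 226 and 52 bases before the start, counted to the 5′ end of the match. Pgam1 had GCGTG at 175 and, on the other strand, at 88, with ACGTG at 114. Bnip3 had a cluster of 4 matches between 117 and 95 bases before the start, of which ACGTG at 107 and CACGT at 108 are the overlapping strands of CACGTG, the E-box, and a further GCGTG at 35. Egln3 had ACGTG at 229, Higd1a had GCGTG at 70 and 66, which share a base, and Tpi1 had neither in this window. RefSeq promoters were matched to 27 of the 29 genes, with 39 promoters in all, since some genes have several starts. ACGTG on either strand was in 19 of these 39 (48.7%) and in 16.6% of the 32851 promoters of the same length, GCGTG in 46.2% and 28.2%, and CACGTG in 7.69% and 6.02%. ACGTG or GCGTG stood in 82.4% of the 17 promoters of genes that rose with acetate in Treg and in 72.7% of the 22 promoters of the others, against 38.6% of all promoters. For ACGTG alone these shares were 64.7% and 36.4%. The genes were chosen for glycolysis and hypoxia, where HIF-1 is known to act, so shares above those of all promoters could be foreseen. Gapdh, outside the fit, was counted among the others, and each start of a gene was counted separately. The motifs are matches of letters, and no binding was measured here.

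Without acetate, most of the genes stood higher in Th17 than in Treg. Of the 28, 17 were higher in Th17 and 0 were lower, where 5.31% of all genes tested were higher and 6.01% lower, and 22 of the 28 had an unadjusted p under 0.05 in limma, in either direction, against 25.7% of all genes. The median difference over the 28 was 1.19. The arrays of the 2 groups did not overlap for 24 genes, all higher in Th17, where 26.7% of all genes were higher in this way and 27.9% lower. The 17 were 2 transporters, 6 enzymes, 2 oxygen-sensing genes and 7 hypoxia targets. Without control Treg replicate 2 the count was 11.

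Among the transporters, Slc2a1, which encodes the glucose transporter GLUT1, had signals of 1206, 1907 and 899 on the control Th17 arrays, 293 and 177 on control Treg and 422 and 618 on control Th1. Every control Th17 array was above every control Treg array, by 2.47 ± 0.38 (adjusted p = 0.0012). Slc16a3, which encodes the lactate exporter MCT4, read 263, 496 and 346 in Th17, 108 and 72.1 in Treg and 149 and 299 in Th1. Its Th17 to Treg difference was 1.97 ± 0.32 (adjusted p = 0.0016), and its Th1 arrays overlapped those of Th17. Slc2a3, the glucose transporter GLUT3, read 1756, 2969 and 2279.8 in Th17 and 1302 and 1424 in Treg, a difference of 0.74 that was not called (adjusted p = 0.29).

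Hk2, the inducible hexokinase that traps glucose in the cell, differed most among the enzymes. Its control signals were 683, 1022 and 757 in Th17, 162 and 133 in Treg and 373 and 333 in Th1, so that the subsets lay in the order Th17, Th1, Treg with no overlap. Hk2 was 5.42-fold higher in Th17 than in Treg (2.44 ± 0.22, adjusted p = 3.2e-05) and 2.28-fold higher than in Th1 (1.19 ± 0.22, adjusted p = 0.0068). Hk1, the constitutive hexokinase, read 511, 687 and 713 in Th17 and 428 and 443 in Treg, a difference that was not called (adjusted p = 0.12). Pfkl, the liver-type phosphofructokinase, read 549, 777 and 784 in Th17, 242 and 209.6 in Treg and 379.9 and 792 in Th1. Th17 exceeded Treg by 1.61 ± 0.25 (adjusted p = 0.0013), and the 2 control Th1 arrays of Pfkl were far apart.

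The enzymes of the later steps followed. Tpi1, which interconverts the triose phosphates, had control signals of 3985, 4042 and 4590.4 in Th17, 1929 and 1405 in Treg and 3313 and 4365 in Th1, and was 2.55-fold higher in Th17 than in Treg (1.35 ± 0.15, adjusted p = 0.00012). For Pgam1, the phosphoglycerate mutase, the values were 2551, 2830.0 and 2371 in Th17, 1235 and 908 in Treg and 2310.4 and 2667 in Th1, with 1.28 ± 0.17 (adjusted p = 0.00044) for Th17 over Treg. Pkm, pyruvate kinase, read 4489, 4919.6 and 5576 in Th17, 3247 and 2667 in Treg and 4615 and 4882 in Th1. Its Th17 to Treg difference was smaller, 0.76 ± 0.12 (adjusted p = 0.0016). Ldha, the lactate dehydrogenase subunit that makes lactate, read 7622, 7945 and 8412 in Th17, 5912 and 5427 in Treg and 6733 and 6835 in Th1, a difference of 0.50 ± 0.11 (adjusted p = 0.013) between Th17 and Treg. All 4 had their lowest control arrays in Treg.

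The oxygen-sensing hydroxylases both differed between Th17 and Treg. Egln3 read 1980.4, 3104 and 2512 in control Th17, 290.2 and 235 in control Treg and 1507 and 2010.2 in control Th1. It was 9.44-fold higher in Th17 than in Treg (3.24 ± 0.42, adjusted p = 0.00032), the widest of the 28 genes. Egln1 read 713, 976 and 1003 in Th17, 318 and 316 in Treg and 443 and 663 in Th1, with 1.48 ± 0.28 (adjusted p = 0.0043) for Th17 over Treg. Hif1a itself, which encodes the regulated subunit of HIF-1, differed less: 0.69 higher in Th17 than in Treg and not called (adjusted p = 0.17), with a range of 919.8 to 2562 over all 14 arrays.

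Of the hypoxia targets, Bnip3, which encodes a mitophagy receptor, read 2037, 2882 and 2729 in control Th17, 687 and 408 in control Treg and 1444 and 2537 in control Th1. Th17 exceeded Treg by 2.24 ± 0.39 (adjusted p = 0.0023). Ankrd37, an ankyrin-repeat gene, read 296, 438 and 220.3 in Th17, 74.7 and 31.5 in Treg and 168 and 307 in Th1, with 2.58 ± 0.51 (adjusted p = 0.0052). Higd1a, a mitochondrial protein of the respiratory chain, read 1985, 2059.7 and 2245 in Th17, 1091 and 1132 in Treg and 2057 and 2183 in Th1, with 0.91 ± 0.17 (adjusted p = 0.0042). In these 3 genes the Th17 and Th1 arrays overlapped, and the Treg arrays stood below both.

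On their selected probe sets Adm, Vegfa and Kdm3a had their highest control mean in Th17. Adm, the peptide hormone adrenomedullin, read 61.7, 51.8 and 59.9 in control Th17, 9.4 and 9.11 in control Treg and 8.35 and 13.9 in control Th1. It was higher in Th17 than in both, by 2.31 ± 0.46 (adjusted p = 0.0055) over Treg and 2.13 ± 0.46 (adjusted p = 0.016) over Th1, although the signals of Treg and Th1 lie near the lowest mean signal of a tested gene, 9.11. Vegfa, the angiogenic growth factor, read 123, 127 and 115 in Th17, 42.1 and 25.7 in Treg and 59.4 and 101 in Th1, and was higher in Th17 than in Treg by 1.79 ± 0.43 (adjusted p = 0.017). Kdm3a, a histone demethylase, read 419, 561 and 513 in Th17, 291 and 249.8 in Treg and 202 and 449 in Th1, and was not called in any of the 3 comparisons of control subsets. Pdk1, the kinase that switches off pyruvate dehydrogenase, was not called, with 249, 297 and 364 in Th17 and 317 and 337 in Treg (adjusted p = 0.88).

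Many of the genes were also lower in control Treg than in control Th1. Here 9 of 28 genes were lower in Treg, namely Hk2, Pfkl, Tpi1, Pgam1, Pkm, Bnip3, Egln3, Ankrd37 and Higd1a, and 0 were higher, where 2.14% of all genes tested were lower and 2.85% higher. In limma 19 of the 28 had an unadjusted p under 0.05, in either direction, against 18.5% of all genes. The median over the 28 was -0.96, and the arrays did not overlap for 22 genes, all lower in Treg, where 25.4% of all genes were lower in this way and 24.4% higher. The differences ran from -2.72 ± 0.46 (adjusted p = 0.005) for Egln3 to -0.69 ± 0.14 (adjusted p = 0.012) for Pkm among those called. The count was 5 without control Treg replicate 1, 2 without control Treg replicate 2 and 4 without control Th1 replicate 2, and 4 with the signals as deposited. The comparison shares the control Treg arrays with that of Th17 against Treg.

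Between control Th17 and control Th1, by contrast, only Hk2 and Adm were called among the 28, both higher in Th17 (2.99% of all genes tested were higher and 3.62% lower), and 0 of the 28 were lower, where 6 genes had an unadjusted p under 0.05 in limma against 22.7% of all genes. The median over the 28 was 0.29. The arrays did not overlap for 8 genes that were higher in Th17, against 20.3% of all genes, and for 1 that was lower, Car9, against 23.6%. This comparison moved with the scaling of the arrays: 12 of 28 were called higher with the signals as deposited and 6 with median-centred arrays, where the median of all genes shifted to 0.62 and 0.25. It fell to 0 without control Th1 replicate 2, and to 1 without control Th17 replicate 1, control Th17 replicate 3 or control Th1 replicate 1. Control Th1 replicate 2 was the higher of its pair for 26 of the 28 genes.

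**Figure D2:**
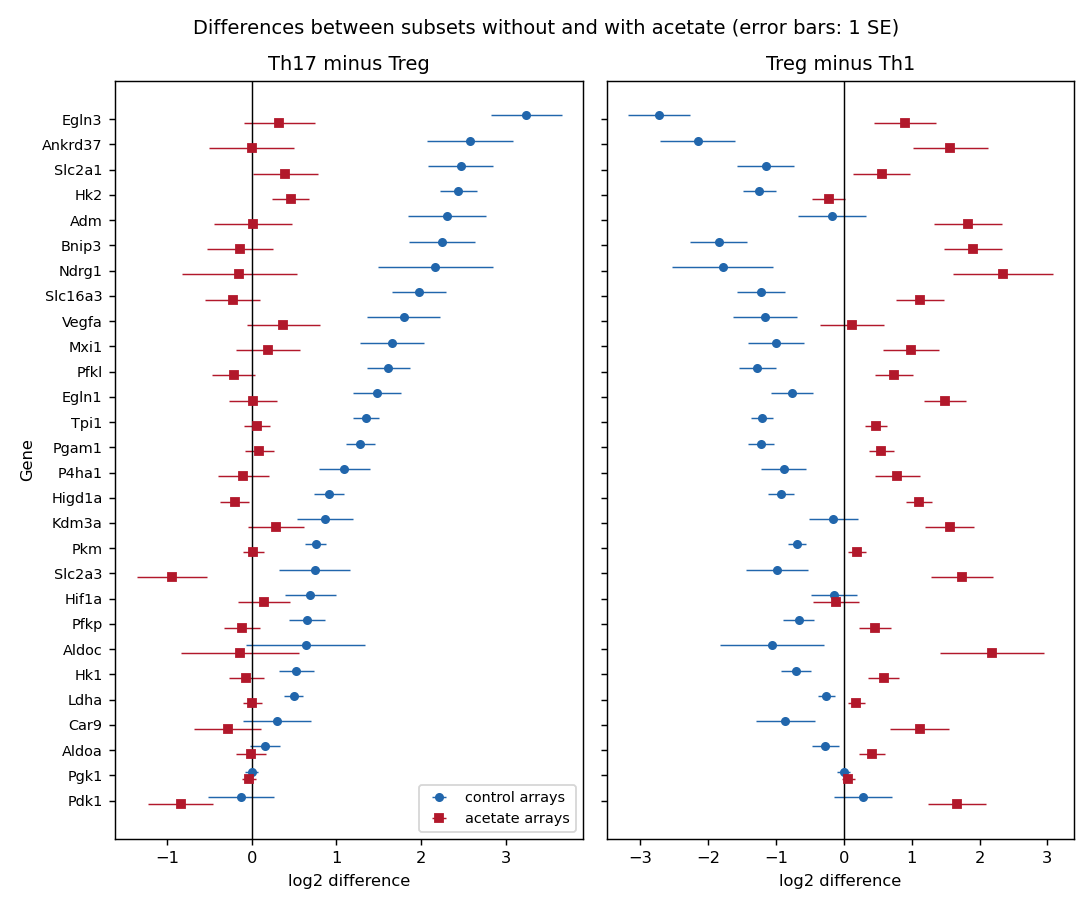
Differences between helper subsets for each gene in log2 units, with standard errors, for the control arrays (blue circles) and the acetate arrays (red squares), as Th17 minus Treg on the left and Treg minus Th1 on the right. On the left the control differences run up to 3.24, with a median of 1.19, and the acetate differences have a median of -0.00.

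With acetate, 14 of the 28 genes rose in Treg cultures and 0 fell, with 20 at an unadjusted p under 0.05 in limma, in either direction, against 27% of all genes. The 14 that rose were the transporters Slc2a1 and Slc16a3, the enzymes Hk1, Hk2, Tpi1, Pgam1, Pkm and Ldha, the hydroxylases Egln1 and Egln3 and the hypoxia targets Bnip3, Ankrd37, Higd1a and Car9. Among all genes tested 7.04% rose and 5.44% fell, and 14 of 28 is a share of 50%. On the selected probe sets the 2 acetate arrays lay above both control arrays for 25 of 28 genes, against 35.1% of all genes. Only Hif1a lay below, against 29.6%. The control Treg arrays are also those of the comparisons between control subsets, so the low start and the rise rest on the same 2 arrays.

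**Figure D3:**
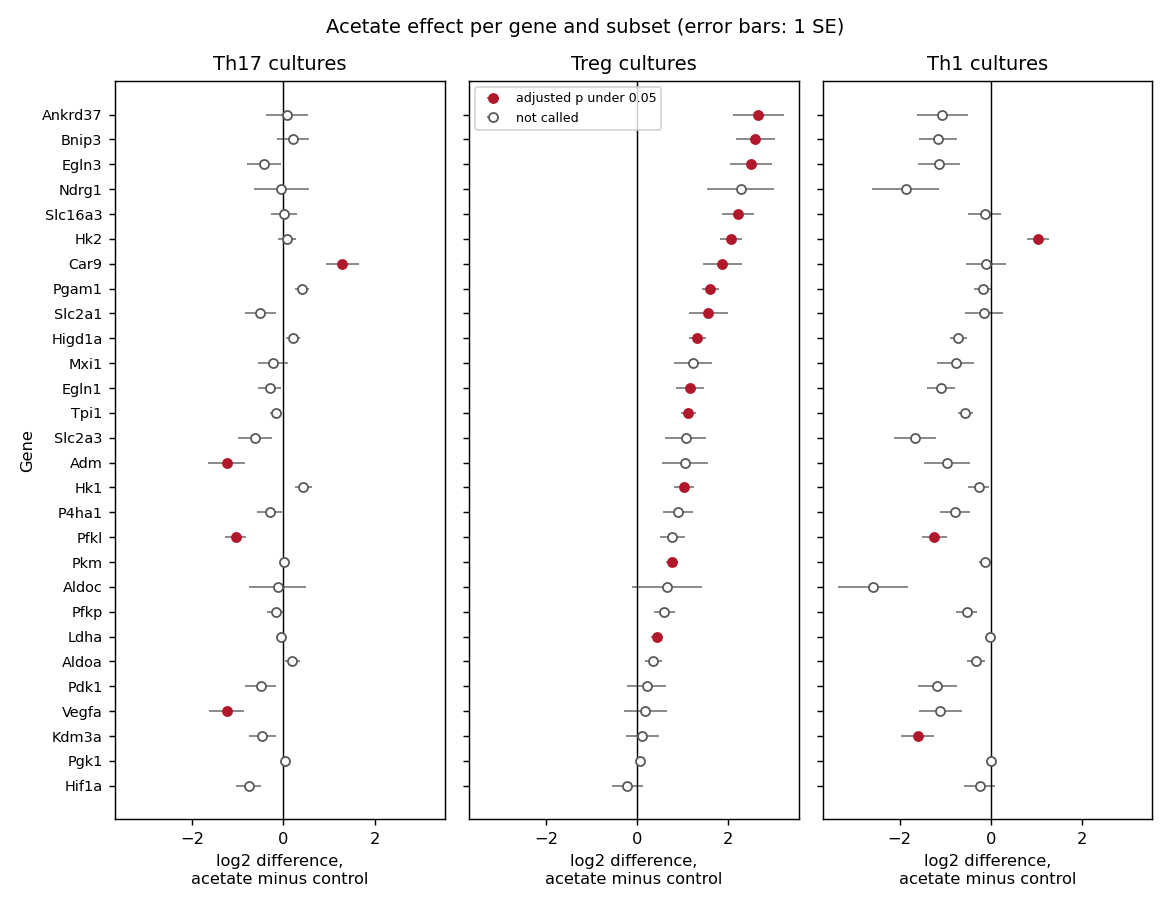
Difference with acetate in each subset for each gene, in log2 units with its standard error, ordered by the difference in Treg; filled points had limma's adjusted p under 0.05. In Treg 27 of 28 genes were above 0 (25 with the signals as deposited) and 14 were called, and in Th1 27 were below 0 with quantile normalization, 19 with the signals as deposited and 20 with median-centred arrays.

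Transporter genes for glucose uptake and lactate export rose. Slc2a1 went from 293 and 177 on the control Treg arrays to 833 and 555 with acetate, 2.95-fold (1.56 ± 0.42, adjusted p = 0.028). Slc16a3 went from 108 and 72.1 to 425 and 417, 4.64-fold (2.21 ± 0.35, adjusted p = 0.0021), and its acetate Treg arrays lay within the range of control Th17. Slc2a3 read 1302 and 1424 without and 2939.7 and 2755 with acetate, arrays that did not overlap but a difference that was not called (1.06 ± 0.46, adjusted p = 0.15).

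Hk2 had the largest response among the enzymes, from 162 and 133 to 780.3 and 492, 4.15-fold (2.05 ± 0.24, adjusted p = 0.00044). Hk1 went from 428 and 443 to 872 and 906 (1.02 ± 0.23, adjusted p = 0.011). Tpi1 went from 1929 and 1405 to 3526 and 3619.9 (1.12 ± 0.16, adjusted p = 0.0014), and Pgam1 from 1235 and 908 to 3303 and 3131 (1.60 ± 0.19, adjusted p = 0.00044). In each of these 4 enzymes both acetate arrays lay above both controls. Pkm rose by 0.76 ± 0.14 (adjusted p = 0.0035), from 3247 and 2667 to 4882 and 5099.6. Ldha rose by 0.43 ± 0.13 (adjusted p = 0.039), from 5912 and 5427 to 7945 and 7351, the smallest called change of the 14. Pfkl, from 242 and 209.6 to 399 and 376, was not called (0.77 ± 0.28, adjusted p = 0.088).

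The hydroxylases and 4 hypoxia targets rose as well. Egln3 went from 290.2 and 235 to 1640.4 and 1331, 5.61-fold (2.49 ± 0.46, adjusted p = 0.0043), and Egln1 from 318 and 316 to 722 and 702 (1.16 ± 0.31, adjusted p = 0.027). Bnip3 went from 687 and 408 to 3258 and 3152, 6.02-fold (2.59 ± 0.42, adjusted p = 0.0023), and both acetate arrays were above every control Th17 array. Ankrd37, from 74.7 and 31.5 to 384 and 274, had the largest change of the 28, and its control arrays were well apart (2.66 ± 0.56, adjusted p = 0.0083). Higd1a went from 1091 and 1132 to 2687 and 2873 (1.32 ± 0.19, adjusted p = 0.0013). Car9, a cell-surface carbonic anhydrase, went from 8.23 and 18.2 to 52.9 and 54.0 (1.87 ± 0.44, adjusted p = 0.015).

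Several hypoxia genes were not called in Treg. Vegfa read 42.1 and 25.7 without and 43.3 and 32.7 with acetate, a difference of 0.18 with a 95% interval of -0.85 to 1.20. The other Vegfa probe set, with a mean signal of 44.1 against 55.5, gave 1.45, outside this interval. Kdm3a read 291 and 249.8 without acetate against 312 and 274 with it, with an interval of -0.66 to 0.89, and Pdk1 read 317 and 337 against 349 and 414, with an interval of -0.71 to 1.14. Hif1a was the single gene with a negative estimate on its selected probe set under quantile normalization (-0.21, interval -0.94 to 0.51). Its other probe sets gave positive estimates of 0.08, 0.18 and 0.82, so the direction for Hif1a depended on the probe set. Ndrg1, a hypoxia-inducible gene, had a large estimate of 2.27 that was not called (adjusted p = 0.062).

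The number of genes that rose in Treg was 9 without control Treg replicate 1, 8 without control Treg replicate 2, 7 without acetate Treg replicate 1 and 9 without acetate Treg replicate 2, each time among the same 14. With the mean of its 3 probe sets Higd1a lost its call (0.45, adjusted p = 0.23), and Ldha was not called in that setting or with no filter. With the signals as deposited Hk1, Ldha, Egln1 and Car9 were not called, and with the replicate number as a block Slc2a1 and Ldha were not.

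**Figure D4:**
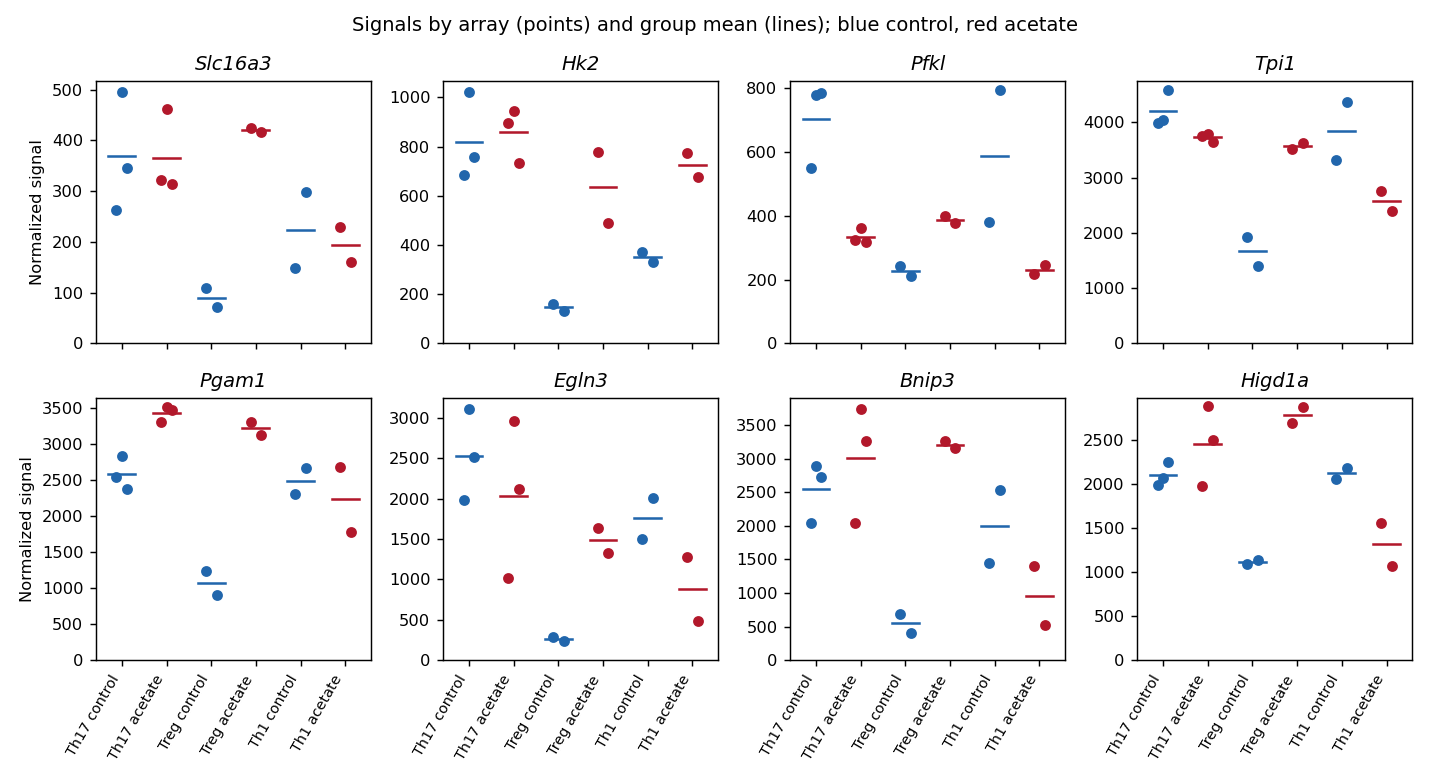
Normalized signal of 8 genes on a linear axis from 0, with a point for each array and a line for each group mean, control in blue and acetate in red. In all 8 genes both acetate Treg arrays lie above both control Treg arrays.

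In Th1 cultures few genes were called. Hk2 rose with acetate, and Pfkl and Kdm3a fell, where 2.07% of all genes tested rose and 1.91% fell. In limma 15 of the 28 had an unadjusted p under 0.05, in either direction, against 22% of all genes. Hk2 went from 373 and 333 to 775 and 677 (1.03 ± 0.24, adjusted p = 0.036), the only one of the 28 with a positive estimate under quantile normalization. Pfkl went from 379.9 and 792 to 217 and 245 (-1.24 ± 0.28, adjusted p = 0.031). Kdm3a went from 202 and 449 to 128 and 73.9 (-1.60 ± 0.36, adjusted p = 0.031). The acetate arrays did not overlap the controls for these 3, and the 2 replicates of Pfkl and Kdm3a differed widely within the control group.

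The other 25 genes in Th1 were not called. The estimates of 27 of 28 were below 0 with quantile normalization, 19 with the signals as deposited and 20 with median-centred arrays, scalings that put the median of all genes at 0.23 and 0.18. The 2 acetate arrays lay below both controls for 16 genes, against 21% of all genes, and above both for Hk2 alone, against 22.1%. Bnip3 read 1444 and 2537 without and 1408 and 519 with acetate (-1.16 ± 0.42, adjusted p = 0.13). Egln3 read 1507 and 2010.2 without acetate against 1282 and 487 with it (-1.14 ± 0.46, adjusted p = 0.17), Ankrd37 168 and 307 against 153 and 75.2, and Slc2a3 1989 and 3662 against 1011 and 713. Acetate Th1 replicate 2 was the lower of its pair for 25 of the 28 genes, most of all for Aldoc, an aldolase, at 69.8 against 744.

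The count of 3 in Th1 was 8 without acetate Th1 replicate 1, all of them lower, and 0 without acetate Th1 replicate 2, control Th1 replicate 2 or control Th17 replicate 3, which enters through the shared spread. It was 7 without acetate Th17 replicate 1 and 5 without acetate Th17 replicate 2, and 1 with the signals as deposited.

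In Th17 cultures 4 of the 28 genes were called. Car9 rose, and Pfkl, Adm and Vegfa fell, where 11.7% of all genes tested rose and 8.66% fell, and for the 28 these shares were 3.57% and 10.7%. An unadjusted p under 0.05 in limma, in either direction, was found for 7 of the 28, against 34.5% of all genes. Pfkl went from 549, 777 and 784 to 323, 362 and 318 (-1.05 ± 0.23, adjusted p = 0.0065), with the acetate arrays close together. Vegfa went from 123, 127 and 115 to 23.7, 76.3 and 66.0 (-1.25 ± 0.39, adjusted p = 0.038), and Adm from 61.7, 51.8 and 59.9 to 15.4, 31.6 and 23.4 (-1.24 ± 0.41, adjusted p = 0.048). The other Vegfa probe set gave -0.57, and the Vegfa call was lost with the mean of probe sets. Car9 went from 17.7, 12.7 and 18.04 to 33.0, 68.7 and 35.7 (1.29 ± 0.36, adjusted p = 0.023). All 3 acetate arrays lay outside the control range for these 4 genes. In all, the arrays did not overlap for 3 genes that were higher with acetate, against 21.8% of all genes, and for 5 that were lower, against 19.3%.

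The other 24 genes in Th17 were not called. Slc2a1 read 1206, 1907 and 899 without and 518, 1206 and 1147 with acetate, with a 95% interval of -1.25 to 0.23 for the difference. Hk2 read 683, 1022 and 757 against 898, 943 and 735, with an interval of -0.35 to 0.50, and Ldha 7622, 7945 and 8412 against 8582, 7280.0 and 7280.0, with -0.27 to 0.17. Bnip3 read 2037, 2882 and 2729 against 2041, 3737 and 3265. Acetate Th17 replicate 1 was the lowest of its group for 21 of 28 genes, and replicate 2 the highest for 23. The count of 4 was 1 without any one of the 3 control Th17 arrays and 2 without acetate Th17 replicate 1.

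In the mean over the 3 subsets with equal weight, 6 genes were called higher with acetate (Hk1, Hk2, Pgam1, Pkm, Slc16a3 and Car9) and 3 lower (Pfkl, Vegfa and Kdm3a). These are 21.4% and 10.7% of the 28, near the 17.6% and 14.1% of all genes tested. A mean can rest on 1 subset. The differences in Th17, Treg and Th1 were 0.01, 2.21 and -0.14 for Slc16a3, and 0.02, 0.76 and -0.12 for Pkm. Hk2 was called higher in both Treg and Th1. The largest means were 1.06 ± 0.13 (adjusted p = 9.7e-05) for Hk2 and 1.02 ± 0.24 (adjusted p = 0.0058) for Car9, and the lowest -0.73 ± 0.26 (adjusted p = 0.047) for Vegfa. That call of Vegfa was lost with the mean of its probe sets. Car9 was the only gene called higher in both Th17 and Treg, and Pfkl the only one called lower in both Th17 and Th1. The count of 9 was 5 without control Treg replicate 1 and 4 without acetate Treg replicate 2.

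The response itself differed between subsets for 7 of 28 genes by limma's F test, which asks whether the 3 acetate effects are equal, where 0.797% of all genes tested differed. They were the enzymes Tpi1 (adjusted p = 0.014), Pgam1 (0.021), Hk2 (0.028) and Pfkl (0.043), the hydroxylase Egln3 (0.036) and the targets Higd1a (0.014) and Bnip3 (0.028). The acetate differences in Th17, Treg and Th1 were -0.17, 1.12 and -0.56 for Tpi1. They were 0.21, 1.32 and -0.71 for Higd1a, and 0.21, 2.59 and -1.16 for Bnip3. In each of the 7 the Treg effect was the highest of the 3. Pfkl was called lower in both Th17 and Th1 (-1.05 and -1.24) while its Treg estimate was 0.77.

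The F test rested on few arrays. The number of genes was 0 without control Treg replicate 2 or acetate Treg replicate 1, 1 without acetate Treg replicate 2, 2 without control Treg replicate 1, 3 without control Th17 replicate 2 or 3, 4 without control Th1 replicate 2, 11 without acetate Th17 replicate 1 and 14 without acetate Th1 replicate 1.

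With acetate in both cultures, no gene of the 28 was called between Th17 and Treg in limma (0 of 28, against 0.925% of all genes tested), and 1 had an unadjusted p under 0.05, against 12.1% of all genes. The median difference over the 28 was -0.00, and the arrays did not overlap for Tpi1, higher in Th17 (13.4% of all genes), and for Pfkl and Pdk1, lower (14.8%). By direction 0.431% of all genes tested were called higher in Th17 and 0.495% lower. The 95% interval for Th17 minus Treg was -0.01 to 0.94 for Hk2, -0.97 to 0.70 for Bnip3, -0.58 to 1.23 for Egln3 and -0.43 to 1.22 for Slc2a1, where the untreated estimates were 2.44, 2.24, 3.24 and 2.47. For Pgam1 the interval was -0.28 to 0.46 and for Tpi1 -0.26 to 0.39.

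Between subsets given acetate, each gene called against Th1 was higher in the other subset. Pgam1, Bnip3, Egln1, Adm, Kdm3a and Higd1a were higher in acetate Th17 than in acetate Th1, where 3.22% of all genes tested were higher, and 0 were lower (2.02% of all genes), with 17 of 28 at an unadjusted p under 0.05 in either direction, against 20.3% of all genes. Over the 23 alternatives the call of Pgam1 was lost in 17, among them both other scalings, and that of Adm in 12; Adm read 1.86 and 7.47 on the acetate Th1 arrays, under the filter signal of 9.11. Kdm3a read 259.9, 374 and 467 in Th17 and 128 and 73.9 in Th1 (1.84 ± 0.33, adjusted p = 0.0061), and Egln1 495, 991 and 761 against 318 and 199.8 (1.50 ± 0.28, adjusted p = 0.0082). Bnip3, Egln1 and Higd1a were higher in acetate Treg than in acetate Th1, where 1.05% of all genes were higher, and 0 were lower (0.385%), with 18 at an unadjusted p under 0.05, against 15.8%. The calls of Bnip3 and Egln1 there were lost in 13 and 11 of the 23 alternatives. Higd1a read 2687 and 2873 in acetate Treg and 1559 and 1069 in acetate Th1 (1.10 ± 0.19, adjusted p = 0.02). The arrays did not overlap for 14 genes that were higher in acetate Th17 than in acetate Th1 (14.1% of all genes) and for 23 that were higher in acetate Treg than in acetate Th1 (23.7%), and for 0 that were lower in either (14.4% and 21.5%). Both comparisons share the acetate Th1 arrays.

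Both counts moved with single arrays. Th17 over Th1 gave 14 without acetate Th17 replicate 1, 11 without acetate Th1 replicate 1, 3 without acetate Th17 replicate 2 or 3 and 1 without acetate Th1 replicate 2. Treg over Th1 gave 9 without acetate Th1 replicate 1, 6 without acetate Th17 replicate 1, 0 without acetate Th1 replicate 2 or either acetate Treg array, and 1 without any one of the control Th17 or control Treg arrays.

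The other genes showed these ranges. Pfkp, the platelet-type phosphofructokinase, ranged over 1014 to 2255 on the 14 arrays, Aldoa, the main aldolase, over 5516 to 9541, and Aldoc over 69.8 to 1825. P4ha1, a collagen prolyl hydroxylase, ranged over 146 to 493, Mxi1, an antagonist of MYC, over 124 to 673, and Ndrg1 over 91.2 to 2412. None of these 6 was called for acetate in any subset, and P4ha1 and Mxi1 were higher in control Th17 than in control Treg by 1.10 ± 0.30 (adjusted p = 0.033) and 1.65 ± 0.38 (adjusted p = 0.012).

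Pgk1 and Gapdh were limited by their probe sets. Pgk1, phosphoglycerate kinase, ranged only from 9994 to 11196 on its selected probe set, where 33 to 76 of the array's 45101 probe sets were brighter. Its other 2 probe sets read 7651 and 6582 on the control Treg arrays against 8683 and 8657 with acetate, 0.29 higher on the log2 scale, and 1642 and 391 against 4947 and 3903, 2.45 higher. The size of the difference thus varied between the 3 probe sets. Gapdh, on its control probe set, read 8478 and 8126 on control Treg and 10453 and 10114 on acetate Treg, and when added to the genes tested it rose by 0.31 ± 0.08 (adjusted p = 0.031). It was 0.30 higher in control Th17 than in control Treg (adjusted p = 0.026), and its acetate effects did not pass the F test (adjusted p = 0.13). Of the genes called for acetate in Treg, 6 had other probe sets bright enough to test, and all 8 such probe sets had the same sign as the selected one. Among the genes not called there, signs could differ. Pfkp gave 0.60 on its selected probe set and 1.10 and -0.42 on the others, and Aldoc gave 0.65 and -0.68.

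Other genes of these pathways were counted from lists that hold none of the 32. These lists too were chosen with earlier results of these data known, so they are no independent test. Among 29 tested genes of the wider hypoxia response, 8 were called with acetate in Treg, all higher, with a median of 0.44, and 15 were higher in control Th17 than in control Treg, where 7.04% and 5.31% of all genes tested were called in these directions. Those that rose included P4ha2, a collagen prolyl hydroxylase (3.28 ± 0.59, adjusted p = 0.0038), Fam162a (1.93 ± 0.35, adjusted p = 0.0038) and P4hb, protein disulfide isomerase (1.07 ± 0.20, adjusted p = 0.0047). In Th1, 2 of the 29 rose and 3 fell, where 2.07% and 1.91% of all genes did, among them Vldlr, a lipoprotein receptor (-2.82 ± 0.46, adjusted p = 0.0091), and Stc2, a secreted glycoprotein (-2.14 ± 0.35, adjusted p = 0.0088). In Th17, 2 rose and 2 fell, where 11.7% and 8.66% of all genes did, again with Stc2 (-2.46 ± 0.28, adjusted p = 0.00018) and Vldlr (-1.80 ± 0.38, adjusted p = 0.0053).

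Among 30 tested genes of other glycolytic and linked sugar metabolism, 3 were called with acetate in Treg, all higher, 1 rose in Th1, and 7 rose and 3 fell in Th17. Of all genes tested 7.04% rose in Treg, 2.07% rose in Th1, and 11.7% rose and 8.66% fell in Th17. Between control Th17 and control Treg, 2 of the 30 were higher in Th17 and 1 was lower, with a median of 0.16. Of all genes tested 5.31% were higher and 6.01% lower there. The 2 were Gbe1 and Pfkfb3, and the lower gene was Eno3, an enolase (-1.98 ± 0.24, adjusted p = 0.00022). The 3 in Treg were Pgm1, phosphoglucomutase (1.85 ± 0.34, adjusted p = 0.004), Gbe1, the glycogen branching enzyme (2.51 ± 0.59, adjusted p = 0.015), and Pdk3, a pyruvate dehydrogenase kinase (1.44 ± 0.18, adjusted p = 0.00051). Pdk3 also rose in Th17 (1.11 ± 0.14, adjusted p = 0.00041), and Pdk1 was not called in either. Bpgm, the bisphosphoglycerate mutase, rose in Th17 (1.26 ± 0.25, adjusted p = 0.004) and Th1 (1.46 ± 0.31, adjusted p = 0.026).

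Among 21 tested genes of the HIF machinery and of regulators of glycolysis, 1 rose and 1 fell with acetate in Treg, 1 rose and 1 fell in Th1, and 5 were called in Th17, all lower. Of all genes tested 7.04% rose and 5.44% fell in Treg, 2.07% rose and 1.91% fell in Th1, and 8.66% fell in Th17. Crebbp, a coactivator of HIF-1, fell in Th17 (-1.44 ± 0.16, adjusted p = 0.00017), Treg (-1.69 ± 0.20, adjusted p = 0.00044) and Th1 (-0.85 ± 0.20, adjusted p = 0.036). Hif3a, an inhibitory relative of Hif1a, rose in Treg (1.36 ± 0.26, adjusted p = 0.0054). Irf4, a transcription factor of activated T cells, was higher in control Th17 than in control Treg (2.09 ± 0.23, adjusted p = 0.0001) and fell with acetate in Th17 (-0.81 ± 0.20, adjusted p = 0.014). Cited2, which competes with HIF-1 for its coactivator, rose in Th1 (0.92 ± 0.22, adjusted p = 0.039).

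Markers of cell identity also moved with acetate, in Treg and in other subsets. Foxp3, the defining regulator of regulatory T cells, read 283 and 381 on the control Treg arrays and 52.2 and 66.0 with acetate (-2.43 ± 0.37, adjusted p = 0.0016), and it also fell in Th17 (-2.34 ± 0.30, adjusted p = 0.00034). Il2ra, the IL-2 receptor chain found on activated and regulatory T cells, read 519 and 479.9 without acetate against 1647 and 1263 (1.53 ± 0.30, adjusted p = 0.0064). Ikzf2, another Treg marker, read 552 and 641 without acetate against 263 and 333 with it, and was not called (-0.999 ± 0.31, adjusted p = 0.0504). The summed signal of the 5 Treg markers was 7240 to 7423 in control Treg and 7592 to 8627 in acetate Treg. Most of this sum was Ctla4 (3303 and 3104 without, 3765 and 3662 with acetate) and Tnfrsf18 (2583 and 2817 against 2899 and 2268). Neither was called. On the acetate Th1 arrays the sum was 4185 to 8986. The sum of 8 CD4 T cell markers was 15805 to 17789 in control Treg and 10533 to 11471 in acetate Treg. The CD4 T cell sum was also lower with acetate in Th17 (12791 to 14313 without, 8182 to 11490 with) and in Th1 (15268 to 15395 and 9736 to 11127). Il17a read 716, 641 and 598 on the control Th17 arrays and at most 15.8 on any Treg array, and Ifng was highest on the acetate Th1 arrays (8168 and 11804). On control arrays Ifng read 1092 and 1244 in Treg and 2987 and 887 in Th1. The summed signal of the 5 Th1 markers was 2643 to 2801 in control Treg and 1889 to 3960.5 in control Th1. Cxcr3 and Stat4 were higher in control Treg than in control Th1 (2.38 ± 0.49, adjusted p = 0.014, and 1.21 ± 0.26, adjusted p = 0.018). Il12rb2 was lower (-1.59 ± 0.38, adjusted p = 0.03), and Ifng and Tbx21 were not called.

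Of the markers of other cells, the summed signal of 4 B cell genes was 2436 to 2783 in control Treg and 907 to 1634 in acetate Treg, nearly all of it Ighm, while Ms4a1 and Cd79a were at no more than 14.8 on every Treg array. The B cell sum was also lower with acetate in Th17 (850 to 1418 without, 274 to 778 with) and in Th1 (563 to 730 and 106 to 111). The sum of 2 NK cell genes was 1182 to 1668 in control Treg and 713 to 873 in acetate Treg, from Klrd1, with Ncr1 at no more than 9.01. In control and acetate Treg, 2 CD8 genes summed to 196 to 217 and 259.8 to 268, 6 macrophage and dendritic genes to 124 to 149 and 191 to 220, and 3 mast cell genes to 57.9 to 129.9 and 43.0 to 65.0. The higher macrophage and dendritic sum was mainly Cd68, at 48.7 and 49.0 without and 116 and 121 with acetate, not called (adjusted p = 0.11). Itgax was lower on both acetate arrays. The part of these markers in the rise of the glycolysis and hypoxia genes was not tested.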

How the data were processed

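Total RNA from cultured mouse CD4+ T cells was measured on Affymetrix mouse GeneChip arrays, 14 in 6 groups. The values used are the signal intensities the authors deposited, computed by MAS5, per the submitters' processing notes (version, target value and other settings not given in the sources used here). They are on a linear scale, and arrays were not at a common level, so they were quantile normalized after log2(signal + 3), which gives equal values to equal ranks. The platform table gave 1 symbol to 34945 of 45101 probe sets (18193 genes). Other probe sets, with no symbol or more than 1, and control probe sets were not used. Per gene the probe set with the highest mean was kept, and genes whose mean reached the 40th percentile over genes, a signal of 9.11, entered the test, 10916 in all. R 4.3.3 with limma 3.58.1 fitted the 6 group means (eBayes with trend, 8 residual degrees of freedom), and p-values were adjusted by Benjamini-Hochberg over all genes tested. All 28 genes in the fit passed the filter. The script was tested on simulated data.

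The members and gene lists were chosen with earlier results of these data known. A gene was given array by array where it was called for acetate or in the F test, or was among the 3 smallest p of a comparison; a gene of the other lists was named where it was called and among the 3 smallest p of its list. Alternatives were the signals as deposited, median-centred arrays, pseudocounts of 1 and 16, no filter, the mean of probe sets, the replicate number as a block, and leaving out each array; adding Gapdh and a block with crossed Th1 numbers were chosen after seeing the data. Promoter sequences are RefSeq's.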

Additional observations from a re-analysis of the deposited data

Results flagged for a closer look

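For 7 genes the acetate effect differed between Th17, Treg and Th1 cultures by limma's F test over all genes tested. The adjusted p was 0.0137 for Tpi1, 0.0137 for Higd1a, 0.0213 for Pgam1, 0.0280 for Hk2, 0.0284 for Bnip3, 0.0359 for Egln3 and 0.0430 for Pfkl. In each, the acetate effect in Treg was the highest of the 3. With 2 or 3 arrays a group, no array was tested for standing apart from its group.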

How the results depend on the processing

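Over 23 alternatives, 74 calls of single genes were followed, and 22 kept their call in every one. The calls of a difference kept their direction, with 0 reversed. The 7 calls of the F test, counted among the 74, have no direction. Among the 22 were Hk2, Tpi1, Pgam1, Bnip3 and Slc16a3 for acetate in Treg. Whether the replicate numbers pair the arrays could not be decided. Deviations of same-numbered control and acetate arrays correlated at 0.15, 0.16 and -0.06 in Th17, 0.06 in Treg and -0.16 in Th1. In groups of 2 arrays the deviations mirror each other, so such a group gives 1 value. With the replicate number as a block, 2 genes were called for acetate in Th17, 1 for acetate in Th1, 1 for control Th17 against Th1, 3 for acetate Th17 against Th1, 1 for acetate Treg against Th1 and 2 in the F test; the other counts stayed within 1.5 times. With the Th1 acetate numbers crossed in the block, 8 were called for acetate in Th1 and 6 for acetate Treg against Th1. With the signals as deposited the counts were 1 for acetate in Th1, 12 for control Th17 against Th1, 4 for control Treg against Th1 and 1 for acetate Treg against Th1. Median-centred arrays gave 6 for control Th17 against Th1, no filter gave 2 for acetate in Th17, and the mean of probe sets gave 1 for acetate Treg against Th1. The causes were not tested. Leaving out each array gave 1 to 6 for acetate in Th17, 7 to 16 in Treg and 0 to 8 in Th1, 4 to 12 for their mean, 0 to 3 for control Th17 against Th1, 2 to 9 for control Treg against Th1, 11 to 19 for control Th17 against Treg, 1 to 14 for acetate Th17 against Th1, 0 to 9 for acetate Treg against Th1, 0 to 0 for acetate Th17 against Treg and 0 to 14 in the F test. Where a group was left with 1 array, that array was assumed to vary like the other groups. Adm and Car9 are the genes nearest to the filter, where background limits the precision of the signal.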
